A study of Equus caballus with 8 samples.

Results

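The genes described here encode the regulators and enzymes by which cells make sterols and fatty acids, together with the acyl-CoA synthetases that activate fatty acids and 3 carriers that move or export sterol. They were chosen as a list of 39 gene symbols, of which 38 had a row among the 15266 named genes of the deposited table, and all 38 passed the filter on low values. CYP51A1, the lanosterol demethylase, had no row under that symbol and was not analysed here. The list was divided into 5 regulators, 16 measured sterol synthesis enzymes, 11 enzymes of fatty acid synthesis, elongation and desaturation, 3 acyl-CoA synthetases and 3 sterol carriers. RNA-sequencing was performed on BM-MSCs, mesenchymal stem cells that adhere and grow out of sternal bone marrow, of 4 adult Thoroughbred or Thoroughbred cross horses that the labels call D, J, L and W. The marrow of each horse was divided and grown without added cytokine or with 1 ng/ml of human recombinant TGF-β2, and RNA was taken at passage 3 or 4, giving 4 untreated and 4 TGF-β2-treated libraries. The labels start the treatment at isolation and the study's methods give it as 3 passages. All cultures shared a low glucose medium with fetal bovine serum, a source of lipoprotein lipid, and with basic fibroblast growth factor. Each horse gave 1 library per condition, and repeat cultures of 1 animal were not included. Differences between horses therefore hold those of animal, culture and library together. The standard errors and intervals below reflect how the change from untreated to treated cells varied among the 4 horses.

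Cholesterol synthesis starts from acetyl-CoA, passes through mevalonate and the isoprenoid farnesyl pyrophosphate, and continues from squalene through lanosterol to cholesterol. The transcription factor encoded by SREBF2 drives most of these enzymes when membrane sterol is low, and that encoded by SREBF1 drives mainly fatty acid synthesis. Both are held in the endoplasmic reticulum with SCAP by the INSIG proteins until sterol falls. When sterol is plentiful, oxysterols activate the liver X receptors, which raise the export pumps ABCA1 and ABCG1 and also SREBF1.

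Between 39198342 and 57256652 reads were counted per library. Values are normalized counts, the reads of a gene divided by a size factor for its library, and they are not divided by transcript length, so that levels are compared between libraries and not between genes. Changes are log2(treated + 1) minus log2(untreated + 1), averaged over the 4 horses and tested with limma with the horse as a block, which compares the libraries of the same horse. A gene passed the test at a Benjamini-Hochberg adjusted p under 0.05 over 14907 genes, and it was called differentially expressed if its log2 change was also over 1 in size, the thresholds of the study. The stromal markers ITGB1, CD44, THY1, ENG and NT5E had at least 1609 normalized counts in every library. The 5 measured leukocyte markers summed to 517 to 2623 normalized counts in untreated and 399 to 743 in treated libraries. PTPRC among them had 1.19 to 110. The endothelial markers CDH5 and KDR had 1.01 to 40.7. In bulk RNA, fewer cells of one type and less RNA per cell cannot be told apart.

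Most of these genes differed little between untreated and TGF-β2-treated cells. A few passed the test, among them 2 desaturases, 2 acyl-CoA synthetases and 2 sterol export pumps, though not all of these under every alternative. Of the 38 members, 9 passed the test (23.7%), against 30.9% of all genes tested. Higher in treated cells were 4 members, FADS1, FADS2, ACSL3 and MSMO1, against a background of 15.7%. Lower were 5, ABCG1, ABCA1, ACACB, SREBF1 and ACSL4, against 15.3%. Of these, 3 were called higher and 3 lower, where 6.83% and 7.31% of all genes were called. The 4 treated and 4 untreated values did not overlap for 8 members, against 27.8% of all genes. The median log2 change was 0.06 over the members and 0.01 over all genes, so that by these counts the list as a whole lay near the background. Single horses weighed on these counts. With horse D, J, L or W left out, 4, 13, 8 or 3 members passed, while 1569, 5551, 3081 or 1425 of all genes did.

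Of the 5 regulators, 1 passed the test (20%, against 30.9% of all genes). SREBF1 had 1941, 2260, 1624 and 1827 normalized counts in the untreated libraries of horses D, J, L and W and 1444, 2083, 959 and 991 in the treated ones. It was lower in all 4 horses, while the 2 groups overlapped because treated cells of horse J held more than 3 of the untreated libraries. SREBF1 thus changed by -0.55 on the log2 scale (standard error 0.15, adjusted p from limma 0.0404), with the highest adjusted p of the 9 passing members. Without the horse as a block the adjusted p from limma was 0.150, and with horse D, L or W left out it was 0.117, 0.125 or 0.152. SREBF1 also did not pass under upper-quartile scaling (0.0520), without limma's trend (0.0653) or in DESeq2 without the horse (0.188).

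SREBF2 did not pass the test. It had 4083 to 7695 normalized counts in untreated and 6907 to 8479 in treated cells, with a log2 change of 0.35 and a 95% interval from -0.12 to 0.82. The adjusted p of SREBF2 from limma was 0.207, and most of its difference came from horse J. SCAP, which escorts both factors to the Golgi, had a log2 change of -0.22 (interval -0.43 to -0.003, adjusted p from limma 0.109), and its 4 treated libraries all lay below the untreated ones. INSIG1, itself a target of the pathway, had a log2 change of -0.27 and INSIG2 one of -0.47, with adjusted p from limma of 0.256 and 0.107. INSIG2 was lower in horses D, L and W and slightly higher in horse J, whose untreated library was the lowest. With horse J left out, INSIG2 passed the test with an adjusted p from limma of 0.0101. Under total scaling, with each library scaled to the same number of reads, SCAP and INSIG2 passed lower (adjusted p from limma 0.00819 and 0.0262). Of all genes 35.2% were lower past the test under that scaling. SCAP also passed in DESeq2 without the horse (adjusted p 0.0475).

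The enzymes of sterol synthesis differed little after TGF-β2 treatment. Of the 16 measured, 1 passed the test and none was called, where 30.9% of all genes passed and 14.1% were called. At an unadjusted p under 0.05, 3 were higher and 1 lower, against 22.4% and 21.9% of all genes. DESeq2 and edgeR with the horse as a term likewise gave 1 that passed and none called. Log2 changes ran from -0.45 for LSS to 0.49 for HMGCS1, with a median of 0.16. For 15 of the 16 the 95% interval lay wholly within a doubling or a halving, the exception being HMGCS1 with an upper bound of 1.09. Among the 15 that did not pass, the intervals reached from a 0.559-fold to a 2.13-fold level, so that smaller changes in either direction could not be resolved with 4 horses.

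In the mevalonate branch, HMGCS1, which makes hydroxymethylglutaryl-CoA, had 6509, 4072, 7337 and 7698 normalized counts in untreated cells of horses D, J, L and W. The treated values of HMGCS1 were 9773, 10321, 7154 and 8016. HMGCS1 was thus higher in horses D and J, with log2 changes of 0.59 and 1.34, and close to its untreated level in horses L and W, with -0.04 and 0.06. The adjusted p from limma for HMGCS1 was 0.177. The mevalonate kinases MVK and PMVK had log2 changes of -0.06 and 0.34, and the decarboxylase MVD one of 0.03. IDI1, which isomerises the isoprenoid unit, had a log2 change of 0.26, and FDPS, which joins the units to farnesyl pyrophosphate, one of 0.13. PMVK and IDI1 were higher in all 4 horses but did not pass (limma, adjusted p 0.0816 and 0.0942).

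In the branch from farnesyl pyrophosphate to cholesterol, MSMO1, which oxidises the methyl groups of lanosterol derivatives, was the gene that passed. It had 7072, 5847, 6215 and 6923 normalized counts in untreated cells of horses D, J, L and W and 9541, 8492, 7677 and 9845 in treated cells. Every treated library lay above every untreated one, and the rise was much alike among horses, with log2 changes between 0.30 and 0.54. The log2 change of MSMO1 was 0.45 (standard error 0.08, adjusted p from limma 0.0139, or 0.0244 without the block). It did not pass with horse D or W left out, with adjusted p from limma of 0.0715 and 0.0736.

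LSS, the cyclase that forms lanosterol, had the lowest log2 change of the enzymes, -0.45 (interval -0.84 to -0.05). It had 3491 to 5417 normalized counts in untreated and 2585 to 3608 in treated cells. Its adjusted p from limma was 0.0834, with 0.0152 when horse J was left out and 0.0212 under total scaling. The enzymes just before LSS lay closer to 0. The squalene synthase FDFT1 had a log2 change of -0.01 and the squalene epoxidase SQLE one of 0.21. Later steps other than MSMO1 ran from -0.10 for NSDHL, a decarboxylating dehydrogenase, to 0.25 for the sterol reductase TM7SF2. Between them lay the ketosteroid reductase HSD17B7 with 0.06, the isomerase EBP with 0.06, the desaturase SC5D with 0.19 and DHCR7, the last reductase of the pathway, with 0.22. LSS and these other steps did not pass, with adjusted p from limma of 0.0834 to 0.977.

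**Figure D1:**
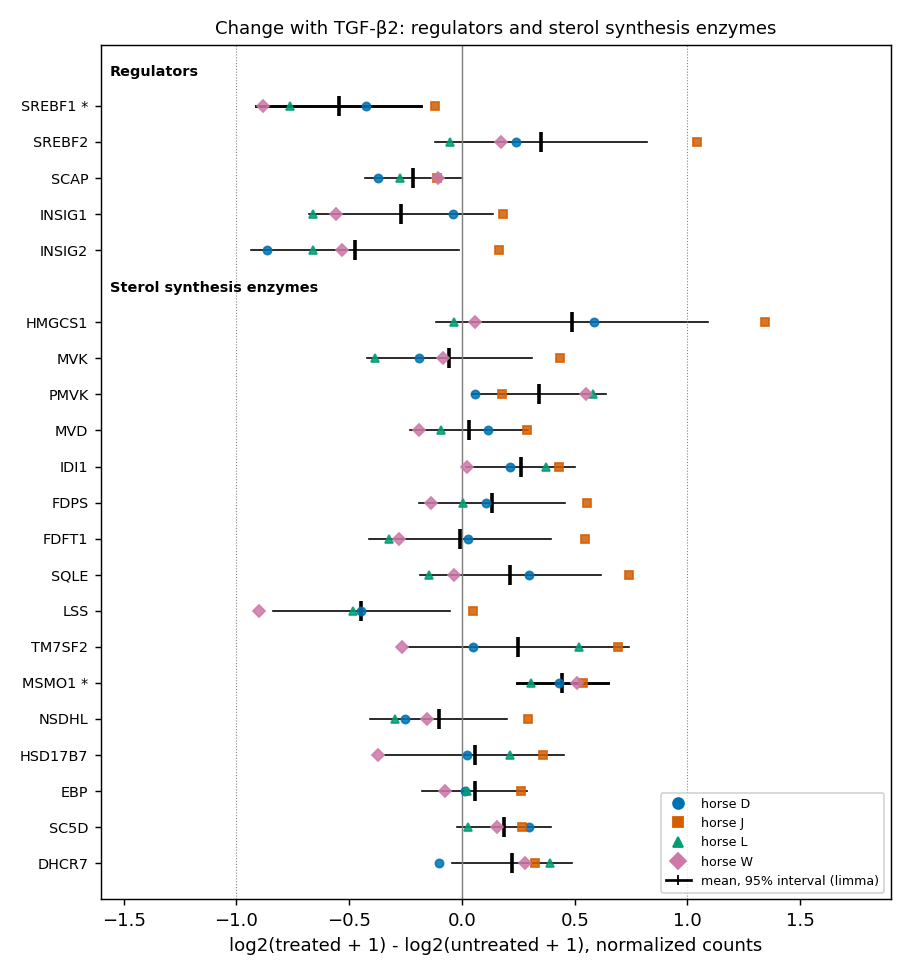
Log2 change with TGF-β2 (x axis) of the 5 regulators and 16 sterol synthesis enzymes. Coloured points are the 4 horses, the black tick and line the limma estimate and its 95% interval, dotted lines a log2 change of 1 in size, and a star an adjusted p under 0.05. SREBF1 and MSMO1 carry a star, and the points of horse J lie to the right for most enzymes.

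The 4 horses differed in these enzymes. In horse J, all 16 enzymes were higher in treated than in untreated cells, with a median log2 change of 0.39. In horse D, 12 of 16 were higher with a median of 0.05, in horse L 9 with a median of 0.01, and in horse W 6 with a median of -0.08. The median over all tested genes was between -0.01 and 0.01 in each horse. Of the 14907 tested genes, 7462, 7430, 7556 and 7360 were higher in treated cells of horses D, J, L and W. The untreated library of horse J held the lowest untreated value for 9 of the 16 enzymes, and horse J showed the highest change for 13. Summed over the 16 enzymes, untreated cells held 55397, 40955, 45935 and 54732 normalized counts in horses D, J, L and W, and treated cells 62043, 59426, 47198 and 55502. The sum in untreated cells of horse J was the lowest of all 8 libraries. With horse J left out, the median log2 change of the 16 enzymes was 0.02.

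Of the 11 fatty acid enzymes, 8 did not pass the test and 3 did (27.3%, against 30.9% of all genes tested). The same 3 were called (27.3%, against 14.1%). ACLY, which makes cytosolic acetyl-CoA from citrate, had 11157 to 14691 normalized counts in untreated and 14392 to 17790 in treated cells, with a log2 change of 0.27 (adjusted p from limma 0.165). ACACA, the cytosolic acetyl-CoA carboxylase, had a log2 change of -0.01 (interval -0.40 to 0.39). FASN, the fatty acid synthase, had one of 0.18 (interval -0.14 to 0.50). These 3 genes supply and use the carbon of new fatty acids. ACSS2, which makes acetyl-CoA from acetate, had log2 changes from -1.17 to -0.06 in single horses and -0.55 over all (adjusted p from limma 0.0741). ACSS2 passed with DESeq2 with the horse as a term (adjusted p 0.0364, or 0.0487 without the horse) and with horse J left out (adjusted p from limma 0.0254). SCD, which inserts the double bond of oleate, had a log2 change of -0.34, from -0.83 in horse W to 0.22 in horse J. SCD had an adjusted p from limma of 0.202, and 0.0355 without horse J. Under total scaling (each library scaled to the same number of reads) both passed lower (0.0174 and 0.0476). The elongases ELOVL1, ELOVL5 and ELOVL6 had log2 changes of 0.09, 0.15 and -0.12, with adjusted p from limma of 0.408 to 0.627. ELOVL6 likewise passed lower under total scaling (adjusted p from limma 0.0412).

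ACACB, the acetyl-CoA carboxylase of the mitochondrial surface whose product restrains fatty acid entry for oxidation, fell. Untreated cells of horses D, J, L and W had 708, 562, 815 and 831 normalized counts of ACACB, and treated cells 253, 409, 318 and 339. The groups did not overlap, and the smallest decrease was in horse J. The log2 change of ACACB was -1.15 (standard error 0.20, adjusted p from limma 0.0119, or 0.00538 without the block). ACACB did not pass with horse D or W left out (adjusted p from limma 0.0621 and 0.0703). Per read of ACACA in the same library, ACACB had 0.130 to 0.191 reads in untreated and 0.0532 to 0.0969 in treated cells, a ratio chosen after the values were seen.

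FADS1 and FADS2 encode the desaturases that add double bonds to essential fatty acids on the way to arachidonic and related acids. RefSeq places them as neighbours among the protein-coding genes of the horse assembly TB-T2T. FADS1 had 3188, 3823, 3976 and 2828 normalized counts in untreated cells of horses D, J, L and W and 9981, 12107, 6445 and 5814 in treated cells. FADS2 had 4761, 6067, 5158 and 4206 in untreated and 13914, 24165, 6947 and 7240 in treated cells. In both genes all treated libraries lay above all untreated ones, and horses D and J showed the larger increases. The log2 change of FADS1 was 1.26 (standard error 0.19, adjusted p from limma 0.00813, or 0.00918 without the block), and it passed with any single horse left out. The log2 change of FADS2 was 1.19 (standard error 0.27, adjusted p from limma 0.0254). FADS2 did not pass in limma with the block dropped (adjusted p 0.0552), nor with horse D (0.108) or horse W (0.0782) left out. The third gene of the family, FADS3, had at most 43.1 normalized counts in any library and was not tested.

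The acyl-CoA synthetases attach coenzyme A to long-chain fatty acids. Of the 3 measured, 1 was higher and 1 lower past the test, where 15.7% and 15.3% of all genes were. ACSL3, the form of the endoplasmic reticulum and lipid droplets, had 2669, 2896, 2473 and 2023 normalized counts in untreated cells of horses D, J, L and W and 6979, 6984, 3606 and 3817 in treated cells. The groups did not overlap, and horses D and J again showed the larger increases. Its log2 change was 1.03 (standard error 0.16, adjusted p from limma 0.00855, or 0.0219 without the block), and it passed with any horse left out. The log2 change of ACSL3 was below the threshold of 1 without horse D (0.91) or horse J (0.95), and that of FADS2 without horse J (0.92). ACSL4, which prefers arachidonic acid, had 11743, 14303, 8970 and 9378 normalized counts in untreated and 8727, 8982, 6546 and 6525 in treated cells. ACSL4 fell in every horse, with log2 changes between -0.67 and -0.43, although the groups overlapped because untreated levels varied among horses. The log2 change of ACSL4 was -0.52 (standard error 0.08, adjusted p from limma 0.00996). ACSL4 did not pass in limma with the block dropped (adjusted p 0.0756), nor with horse D (0.0502) or horse W (0.0574) left out.

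The ratio of ACSL3 to ACSL4 reads, also chosen after the values were seen, was 0.203 to 0.276 in untreated and 0.551 to 0.800 in treated cells. ACSL1, a widely expressed form, had a log2 change of -0.43 (adjusted p from limma 0.398). The value of ACSL1 rested on the untreated library of horse J, which had 7285 normalized counts where the other 7 libraries had 1979 to 2748. With horse J left out its log2 change was 0.04. The same library had the highest values of the leukocyte markers PTPRC and CD68, 110 and 2437 normalized counts, and the 5 measured markers of that list summed to 2623 there and to 399 to 1007 in the other libraries. Another marker of the list, CSF1R, had 1.35 in that library against up to 147 elsewhere, and ITGAL and ITGAM had 53.9 and 20.9. None of the 5 passed the test of limma, where 30.9% of all genes did. At an unadjusted p under 0.05 from limma, 2 were lower, against 21.9% of all genes. DESeq2 with the horse as a term gave adjusted p of 0.0403 for PTPRC and 0.0349 for CD68. The part of such cells in the ACSL1 value was not tested.

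**Figure D2:**
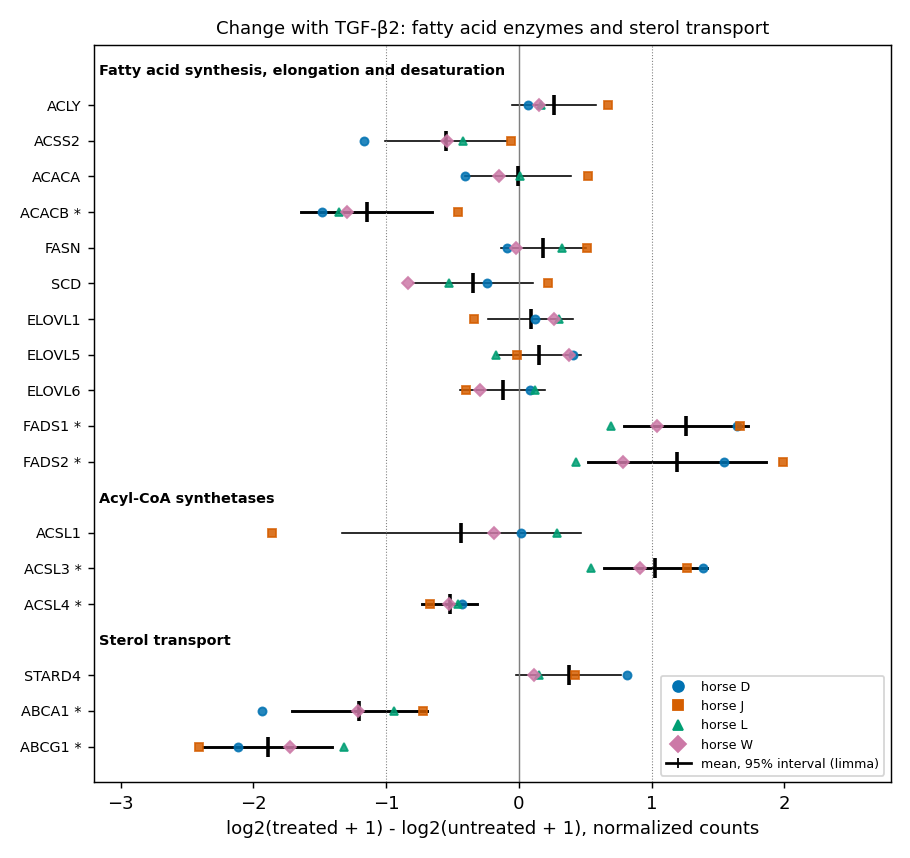
Log2 change with TGF-β2 (x axis) of 11 fatty acid enzymes, 3 acyl-CoA synthetases and 3 sterol carriers. Points are the 4 horses, the black tick and line the limma estimate with its 95% interval, dotted lines a log2 change of 1 in size, and a star an adjusted p under 0.05. FADS1, FADS2 and ACSL3 lie to the right of 0 in every horse and ACACB, ACSL4, ABCA1 and ABCG1 to the left.

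Both sterol export pumps fell, and ABCG1 showed the largest change of the 38 genes. ABCG1, which passes cholesterol to high density lipoprotein, had 2066, 2598, 947 and 677 normalized counts in untreated cells of horses D, J, L and W. Treated cells had 476, 489, 379 and 204 of ABCG1. All treated values lay below all untreated ones, although untreated levels differed widely between horses. The log2 change was -1.89 (standard error 0.20, adjusted p from limma 0.00337, or 0.0231 without the block), and ABCG1 passed with any horse left out.

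ABCA1, which loads cholesterol and phospholipid onto lipid-poor apolipoproteins, had 8399, 5439, 6958 and 4873 normalized counts in untreated cells and 2200, 3291, 3620 and 2108 in treated cells of horses D, J, L and W. The groups did not overlap. The log2 change was -1.20 (standard error 0.20, adjusted p from limma 0.0115, or 0.00958 without the block). ABCA1 was not called with horse W left out (adjusted p from limma 0.0656), nor with horse D left out, where it passed with a log2 change of -0.96. STARD4, a carrier of sterol within the cell, was higher in all 4 horses, from 0.11 to 0.81, but did not pass (log2 change 0.38, adjusted p from limma 0.128).

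**Figure D3:**
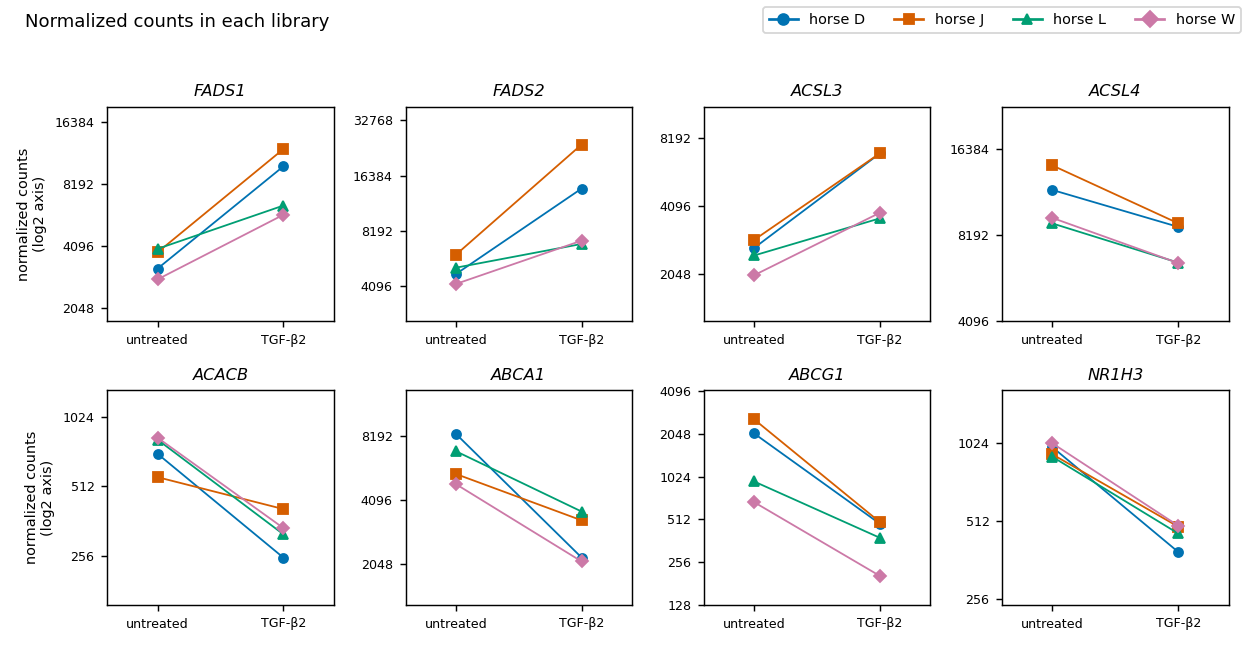
Normalized counts (y axis, log2 scale) of 7 members and NR1H3 in the untreated and the TGF-β2-treated library of each horse, joined by a line. FADS1, FADS2 and ACSL3 are higher and ACSL4, ACACB, ABCA1, ABCG1 and NR1H3 lower in treated cells of every horse.

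Genes of the same pathways outside the 39 were also examined. A list of 21 further sterol genes had 1 higher and 5 lower members past the test (28.6%, against 30.9% of all genes) and a median log2 change of -0.17, and 1 was called (4.76%, against 14.1%). The called one was NR1H3, the liver X receptor alpha, with 984, 924, 904 and 1019 normalized counts in untreated and 388, 486, 457 and 490 in treated cells of horses D, J, L and W. The groups of NR1H3 lay far apart, and its log2 change was -1.07 (standard error 0.11, adjusted p from limma 0.00362), past the test with any horse left out. Without horse D its log2 change was -0.99, short of the threshold of 1. NR1H2, the beta form of the receptor, did not pass, with a log2 change of -0.15 (interval -0.37 to 0.06). MYLIP, another target of these receptors, had a log2 change of -0.13, with single horses from -1.10 to 1.29. CH25H had the highest log2 change of this list, 1.39 (interval -0.29 to 3.08), and did not pass (adjusted p from limma 0.170). Single horses ran from -1.02 to 2.89 for CH25H, and without horse L it passed (0.0319). It had 11.2 to 64.1 normalized counts in untreated and 26.4 to 125 in treated cells.

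The others that fell were ERLIN1 and ERLIN2, which act in sterol-dependent protein breakdown in the endoplasmic reticulum, and NPC2 and LIPA of the lysosome. Their log2 changes were -0.52, -0.36, -0.52 and -0.60, with adjusted p from limma of 0.0180 to 0.0315. ACAT2, which makes acetoacetyl-CoA for the pathway, rose by 0.40 on the log2 scale (adjusted p from limma 0.0406). None of these 5 passed with horse D left out (adjusted p from limma 0.0550 to 0.137) or with horse W left out (0.0799 to 0.114), and NPC2 alone passed without horse L. With the block dropped, ERLIN2, NPC2 and LIPA did not pass (0.125, 0.0584 and 0.187). The SREBP proteases MBTPS1 and MBTPS2 had log2 changes of -0.17 and 0.10 and did not pass.

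Of 26 further fatty acid genes, 22 had a row and 20 were tested. Past the test were 4 higher and 4 lower (8 of 20, or 40%, against 30.9% of all genes). In each direction 1 was called (10% in all, against 14.1% of all genes). ELOVL3, an elongase of very long chains, was called higher. It had 35.7, 62.6, 88.6 and 106 normalized counts in untreated and 238, 145, 446 and 434 in treated cells, without overlap. The log2 change of ELOVL3 was 2.06 (standard error 0.27, adjusted p from limma 0.00613), past the test with any horse left out. HACD1 and HACD2, dehydratases of the elongation cycle, rose by 0.51 each, and AACS, which activates acetoacetate, rose by 0.45. ACSL5, another synthetase of the family, was called lower with 1000, 5036, 745 and 1965 normalized counts in untreated and 430, 639, 438 and 765 in treated cells. Its log2 change was -1.58 (adjusted p from limma 0.0262, or 0.0724 without the block), with horse J highest before treatment as for ACSL1. ACSL5 did not pass without horse D (adjusted p from limma 0.0827) or horse W (0.0972). GPAM, which starts glycerolipid synthesis, fell by 0.78, and MLX, a transcription factor subunit, and DBI, an acyl-CoA binding protein, fell by 0.36 and 0.49 on the log2 scale. Of HACD1, AACS, GPAM, MLX and DBI, none passed without horse D (adjusted p from limma 0.0545 to 0.145) or without horse W (0.0814 to 0.128), and DBI alone passed without horse L. HACD2 did not pass without horse D (0.0643), nor HACD1 and DBI with the block dropped (0.137 and 0.176). MLXIPL, the glucose-sensing partner of MLX, had 3.77 to 73.1 normalized counts in untreated and at most 2.38 in treated libraries, and was not tested.

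**Figure D4:**
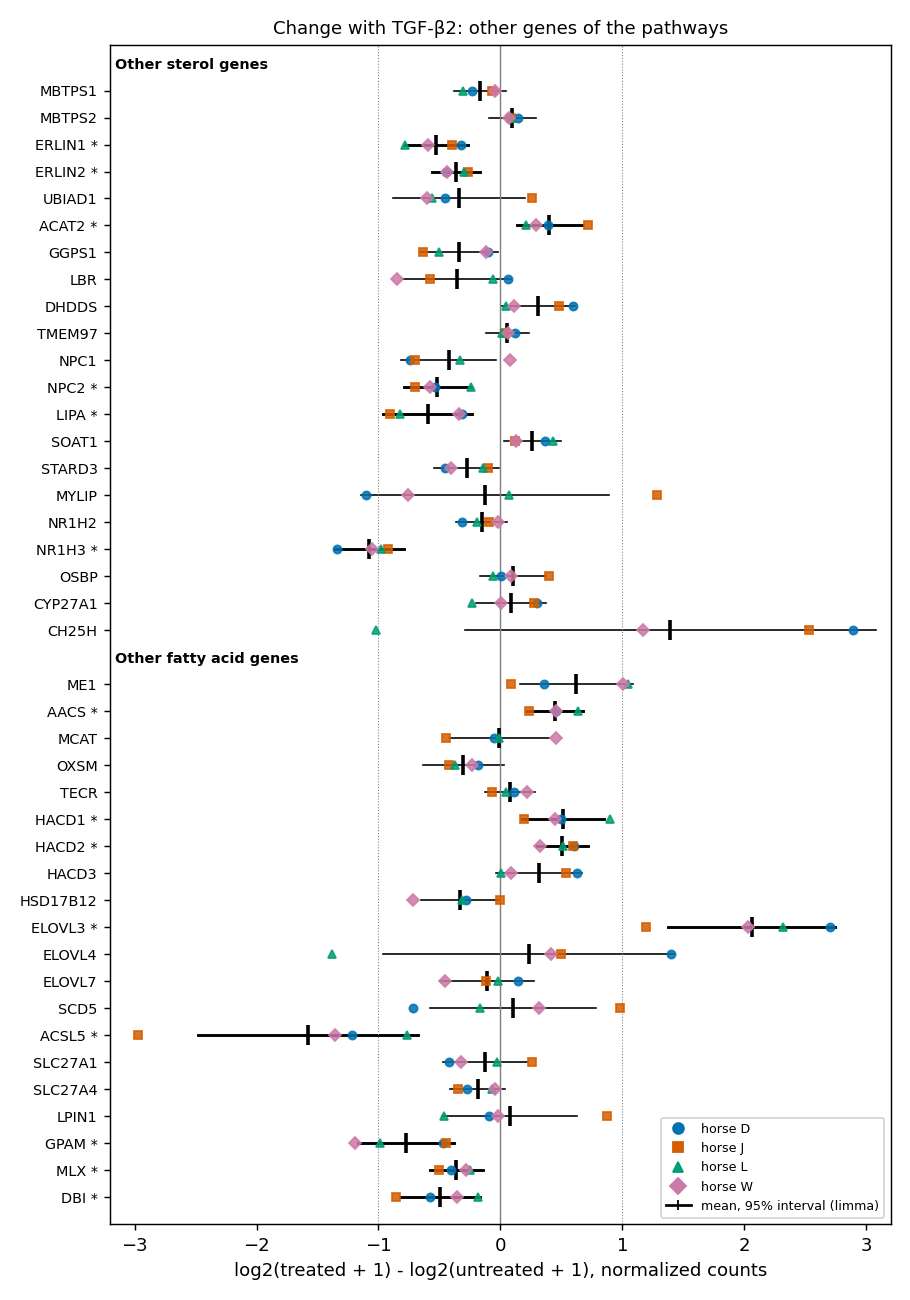
Log2 change with TGF-β2 (x axis) of 21 further sterol genes and 20 further fatty acid genes. Points are the 4 horses, the black tick and line the limma estimate with its 95% interval, dotted lines a log2 change of 1 in size, and a star an adjusted p under 0.05. NR1H3 and ACSL5 lie past a log2 change of -1 and ELOVL3 past 2. CH25H lies past 1 without a star, and most other genes lie between -0.6 and 0.6.

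The directions of the smaller changes depended on how libraries were scaled. Transcripts of FN1, COL1A1 and COL1A2 made up 0.881% to 6.27% of untreated and 10.3% to 14.4% of treated libraries. With each library scaled to the same total, the log2 change of the median gene was -0.30 and the sterol enzymes had a median of -0.15, above that shift. Of all genes 8.01% were then higher and 35.2% lower past the test, and the members had 2 higher, FADS1 and ACSL3, and 11 lower. The lower ones were SREBF1, SCAP, INSIG2, LSS, ACSS2, ACACB, SCD, ELOVL6, ACSL4, ABCA1 and ABCG1. Among called genes 27.5% were higher under total scaling against 48.3% under the deposited normalization. MSMO1 and FADS2 did not pass under total scaling (adjusted p from limma 0.275 and 0.0566), and the 1 sterol enzyme past the test was then LSS, lower, in place of MSMO1. ACAT2, AACS, HACD1 and HACD2 likewise did not pass (0.162 to 0.594). The 5 members with a negative change past the test had log2 changes from -2.20 to -0.83 under it, and FADS1, FADS2 and ACSL3 from 0.72 to 0.95.

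Some markers of other cell states also differed between the groups. Of 5 tested adipocyte markers, ADIPOQ was higher and CEBPA and LPL lower past the test (60%, against 30.9% of all genes). The 6 markers with a row summed to 3255 to 10543 normalized counts in untreated and 1978 to 2589 in treated cells. CEBPA, which also acts in myeloid cells, made up most of the untreated sum. ADIPOQ itself had 4.71 to 25.2 normalized counts in untreated and 45.7 to 167 in treated cells. PLIN1, CIDEC, LEP and FABP4 were not analysed here. Of 14 genes of cell division, 1 passed the test (7.14%, against 30.9% of all genes), TYMS, which fell by 1.16 on the log2 scale. In DESeq2 with the horse as a term RRM2 also passed, higher (adjusted p 0.0361). The sum of the 14 genes ran from 10156 to 36678 in untreated and from 6512 to 33536 in treated libraries. It was higher after treatment in horses D and L and lower in horses J and W, while the median change of the sterol enzymes was highest in horse J. Of the 5 stromal markers, 3 passed the test (60%). ITGB1 rose by 0.91 and THY1 and ENG fell by 2.21 and 0.42 on the log2 scale. KDR, 1 of 2 tested genes of the endothelial list (50%), was higher past the test, with at most 40.7 normalized counts. The part of these cell states in the results above was not tested.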

How the data were processed

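Gene expression was measured by poly(A)-selected, paired-end RNA-sequencing in 8 libraries, 2 from each of 4 horses. Per the labels and the study's methods, the authors trimmed reads with Trimmomatic 0.36, mapped them to EquCab 3.0 with STAR 2.5.2b, took unique hits per gene with featureCounts of Subread 1.5.2 and used DESeq2. They deposited normalized counts, a signal of reads divided by a size factor per library. All values (100% within 0.01) were whole multiples of the value of 1 read, so reads were recovered. A row without a name was left out (0.0281% to 0.0531% of a library).

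The test was limma 3.58.1 (R 4.3.3; eBayes with trend) on log2(normalized count + 1) for the 14907 genes that reached 10 normalized counts in 4 or more libraries, with the horse as a block. The methods name no donor term, and the fit without it is an alternative. The labels name the horse of each library, and libraries of 1 horse deviated together from their group means (correlation across genes 0.386 to 0.609). Called genes numbered 2108, or 2343 with DESeq2 1.42.0 and 2059 with edgeR 4.0.16 on the recovered reads with the horse as a term. Intervals are single-gene 95% intervals. All members with a row are named, as is every called gene of the other pathway lists. The members and lists were chosen with earlier results of these data known. Pseudocounts, filters, scalings, tests and leaving out each horse were varied, and the procedures were tested on simulated data. Sequences were not used here. RefSeq's table of assembly TB-T2T, its protein-coding genes ordered by chromosome and start, served for neighbouring genes only.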

Additional observations from a re-analysis of the deposited data

Results flagged for a closer look

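Among 76 groups of 4 libraries (38 genes in 2 conditions), 4 held a library far from the other 3 by Dixon's ratio of the gap to the range on the log2 scale, and chance gives about 1 in 20 groups. ACSL1 did so in both conditions. Its untreated library of horse J was highest (ratio 0.924), with 7285 normalized counts against 2041 to 2249. Its treated library of horse L was highest as well (ratio 0.868), with 2748 against 1979 to 2067. INSIG2 had its lowest untreated library in horse J (ratio 0.899), with 565 normalized counts against 974 to 1035. ACSS2 had its highest treated library in horse W (ratio 0.916), with 1555 normalized counts against 1292 to 1313.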

How the results depend on the processing

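No sterol synthesis enzyme was called under any alternative run. Fatty acid enzymes called numbered 3, and 1 under total scaling or an adjusted p under 0.01, with 1 to 3 when single horses were left out (1 without horse D or W). Fatty acid enzymes past the test numbered 3, with 5 under total scaling, 1 at an adjusted p under 0.01 and 1 to 5 with a horse left out. The 1 sterol enzyme past the test was lost at 0.01 (0), and leaving out a horse gave 0 to 2. Without the replicate block (horse) limma called 2 fatty acid enzymes, and SREBF1, FADS2 and ACSL4 of the 9 passing members did not pass. DESeq2 without the horse called 3 fatty acid enzymes. There FADS2 and ACSL4 passed (adjusted p 0.00395 and 0.0405) and SREBF1 did not (0.188). No passing member changed sign under any alternative. Total scaling turned 13 members that had not passed, with log2 changes of -0.28 (MVD), -0.0523 (IDI1), -0.18 (FDPS), -0.10 (SQLE), -0.0628 (TM7SF2), -0.26 (HSD17B7), -0.26 (EBP), -0.13 (SC5D), -0.0890 (DHCR7), -0.0467 (ACLY), -0.13 (FASN), -0.22 (ELOVL1) and -0.16 (ELOVL5). This follows from the shift of the median gene. Upper-quartile scaling gave 0.00429 for FDFT1 and 0.00449 for ACACA, and DESeq2 without the horse 0.00219 for FDFT1. With a horse left out, log2 changes that crossed 0 ran from -0.22 to 0.0535 (MVK), -0.0556 to 0.10 (MVD), -0.00737 to 0.22 (FDPS), -0.19 to 0.10 (FDFT1), -0.0455 to 0.20 (HSD17B7), -0.0114 to 0.10 (EBP), -0.18 to 0.13 (ACACA) and -0.68 to 0.0409 (ACSL1). The lowest value of any member was 188 normalized counts (TM7SF2, untreated, horse J), and precision was limited by the number of horses, 4.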
